A study of Mus musculus with 6 samples.

Results

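The RANKL axis and its osteoclast targets were examined as 10 of 21853 protein-coding genes: Tnfsf11, Csf1, Tnfrsf11b, Tnfrsf11a, Oscar, Nfatc1, Dcstamp, Ocstamp, Acp5 and Ctsk. They were chosen by name for their place in the pathway. The choice used no measured value as a rule, but earlier results of these data were known. For each gene, called peaks were taken within 1000 bp either side of every protein-coding transcription start site (TSS), in the gene body, and in 20 kb upstream, or 100 kb for Tnfsf11. Over the 6 libraries these stretches, called domains here, held 33 of 63840 merged accessible regions.

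The study profiled open chromatin by ATAC-seq, in which a transposase cuts accessible DNA, to ask how chromatin changes with age in skeletal stem and progenitor cells (SSPCs). All 6 libraries, 3 young and 3 middle-aged, came from untreated C57BL/6 mice, with no transgene or deletion stated for either group. The cells were grown from tibial and femoral marrow that had been plated on plastic in serum-containing medium, and were taken at the first passage. No sorting step is stated for these cultures, and the sources say that assays used at least 3 mice without tying a library to an animal, so every p below measures the spread between these libraries.

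RANKL, encoded by Tnfsf11, is made by stromal cells, osteoblast-lineage cells and lymphocytes and binds RANK, encoded by Tnfrsf11a, on myeloid osteoclast precursors. Osteoprotegerin, the product of Tnfrsf11b, is a secreted decoy that keeps RANKL from RANK, and M-CSF, encoded by Csf1, sustains the precursors. RANK signalling, with co-stimulation through receptors such as OSCAR, induces the transcription factor NFATc1, which drives the genes for cell fusion (Dcstamp, Ocstamp) and for bone resorption (Acp5, the tartrate-resistant acid phosphatase, and Ctsk, the collagen-degrading protease cathepsin K).

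Libraries differed in depth and in the length of their lists. Young libraries had 27628 to 43941 peaks and middle-aged libraries 46364 to 48344, and the genome-wide background, the mean number of extended reads per base, was 1.65 to 3.75 in young and 2.40 to 2.79 in middle-aged libraries. Young 3 was the shallowest library and had the shortest list. At these backgrounds a peak needed a summit pileup of 8 to 13 reads to reach its list, or 3.47 to 4.86 times the background, and more where the local background was higher. A missing call therefore means that the signal stayed under such a level and not that the site was closed. The percentile rank used below is the share of a list's peaks, ordered by −log10 q, that a peak equals or exceeds. It was higher in middle-aged libraries by a median of 4.97 points over all 10569 genes with a TSS peak in every library, and by 6.74 points over all 22403 regions called in every library, so the differences of the 10 genes are read against those values. With 3 libraries against 3 the two-sided exact permutation test cannot give a p below 0.1.

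The labelled cell type was checked with marker lists, since the receptor and fusion genes are known from myeloid cells and the ligand genes from stromal cells. Of 12 stromal markers, Kitl and Twist1 had a TSS peak in all 6 libraries, and Lepr, Prrx1, Col3a1 and Thy1 had none in any. Cxcl12 was called in young 1 and 2 and in middle-aged 2 and 3. Pdgfrb, Col1a1 and Col1a2 were called in every library but young 3. The 2 of 12 rest on young 3, the shallowest library: without it 5 of 12 were called in every library, beside 52.2% of all protein-coding genes, against 48.4% with it. Pdgfra was called in young 1 and in all middle-aged libraries, and Twist2 in middle-aged 1 and 2. The number of stromal markers called was 7, 6 and 2 in young 1, 2 and 3, against 7, 8 and 7 in middle-aged libraries. Of all protein-coding genes, 54.5%, 56.8% and 49.5% were called in these young libraries and 57.4%, 57.4% and 58.0% in the middle-aged ones. Of 12 macrophage markers, 11 were called in every library, with or without young 3, and only Csf1r was not. Tyrobp, C1qa and Spi1 had the highest mean ranks at 79.3, 74.9 and 63.2, and Mrc1, Itgam and Cd14 the lowest at 24.0, 27.2 and 49.1. All of these lay below the median mean rank of 84.9 over all 10569 genes called throughout. The median rank of the macrophage list was 54.3, 59.3 and 41.8 in young and 66.4, 61.8 and 65.3 in middle-aged libraries, with every middle-aged library above every young one. Of its 11 genes called throughout, 2 were separated in this way singly, beside 30.6% of all genes called throughout. Median ranks of the osteoclast signalling list and the fusion, attachment and resorption list, described below, were separated too. Those of the stromal markers, which rest on Kitl and Twist1 alone, and of the stromal input list overlapped. Of these 2 stromal markers, 1 was separated singly with middle-aged above. The median difference between ages was 10.2 points for the macrophage markers and 8.39 for the stromal markers. It was 4.97 points over all genes called throughout. No median rank per library over all genes is given beside these separations.

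Few lymphoid, erythroid and megakaryocyte markers were called. Of 8 lymphoid markers 0 were called in all 6 libraries, where 48.4% of all protein-coding genes were. Pax5, a B cell transcription factor, was called in middle-aged 1, 2 and 3 at ranks 51.7, 13.8 and 51.8 and in no young library. That pattern was shared by 0.476% of all protein-coding genes. Cd3e, Cd3g, Cd4, Cd8a, Cd79a and Lck were called nowhere. Of 6 erythroid and megakaryocyte markers 0 were called throughout, beside the same 48.4%. Klf1, an erythroid transcription factor, had rank 71.6 in young 2, the only young library with a peak, and 82.1, 78.5 and 86.4 in the middle-aged libraries. Epor, the erythropoietin receptor gene, named after its values were seen, had ranks 22.3 and 9.37 in young 2 and 3, against 51.0, 47.1 and 42.3 in middle-aged libraries, whereas Gata1, Hbb-bt, Itga2b and Gp9 were called nowhere. The middle-aged lists were longer, and no share of all genes with the patterns of Klf1 and Epor is given. Of 6 endothelial markers Cdh5 was called throughout and Emcn nowhere. The number called was 3, 3 and 2 in young 1, 2 and 3, against 5, 4 and 3 in middle-aged libraries. The shares of all genes were 54.5%, 56.8% and 49.5% in young and 57.4%, 57.4% and 58.0% in middle-aged libraries. Without young 3, 3 of the 6 were called in every library, beside 52.2% of all genes. In bulk samples a change in the share of a cell type and a change in accessibility within it cannot be told apart, and the part of cell composition in the results below was not tested.

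Start-site peaks were called throughout for the second ligand gene, the receptor gene and the transcription factor gene. Csf1, Tnfrsf11a and Nfatc1 had a TSS peak in all 6 libraries, 3 of 10 genes, where 48.4% of all protein-coding genes did. Tnfsf11, Oscar, Dcstamp, Ocstamp and Acp5 had none in any library, 5 of 10, against 38.5% of all genes. Tnfrsf11b had a TSS peak in every library but young 1, and Ctsk had one in the 3 middle-aged libraries and in no young library, a pattern shared by 0.476% of all genes and absent from Ctsk when the lists were made equally long. The number of the 10 genes with a TSS peak was 3, 4 and 4 in young 1, 2 and 3 and 5 in each middle-aged library. Of all protein-coding genes, 54.5%, 56.8% and 49.5% had one in young 1, 2 and 3. The shares were 57.4%, 57.4% and 58.0% in middle-aged 1, 2 and 3. The difference among the 10 genes turned to fewer genes in middle-aged libraries, by a mean of -0.667 genes, when lists were shortened. Every list then kept its best 27628 peaks, and no share over all genes per library is given for that setting.

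**Figure D1:**
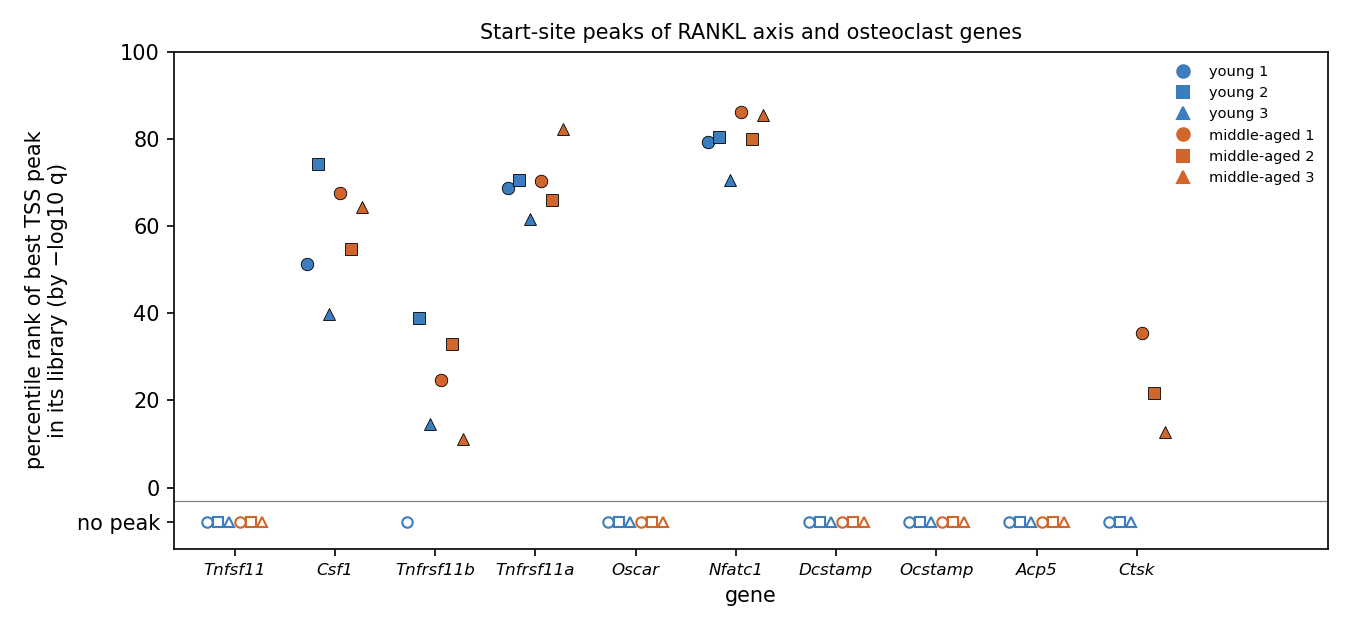
Percentile rank by −log10 q of the best TSS peak of each gene in each library (vertical axis, %), with young libraries in blue and middle-aged libraries in orange, and open symbols below the line where no peak was called. Csf1, Tnfrsf11a and Nfatc1 have 6 filled symbols each, Ctsk has 3, all middle-aged, and 5 genes have none.

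Accessible chromatin near the RANKL gene was sparse and lay far from its start. The Tnfsf11 gene runs on the minus strand from chr14:78277445-78308043 in mm10, and no library had a peak within 1000 bp of its start. The nearest accessible region was 19787 bp away. The 300 bases around the start, from RefSeq (GRCm38.p6), are shown because a start with no call is the main observation at this ligand, with CpG dinucleotides in capitals. The window is chr14:78307994-78308293, minus strand.
Tnfsf11 promoter: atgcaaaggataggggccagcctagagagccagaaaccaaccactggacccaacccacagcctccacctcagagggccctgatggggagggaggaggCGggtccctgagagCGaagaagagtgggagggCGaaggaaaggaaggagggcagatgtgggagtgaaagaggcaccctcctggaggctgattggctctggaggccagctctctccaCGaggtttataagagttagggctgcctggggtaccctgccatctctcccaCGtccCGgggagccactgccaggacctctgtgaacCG
It holds 7 CpG and 61.7% G and C, beside medians of 7 CpG and 52.7% over 32851 promoters of the same length.

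Each of the 4 accessible regions of the Tnfsf11 domain was missed in at least 3 libraries. A region in an intron at +19.9 kb from the start was called in young 2 at rank 33.0 and in middle-aged 3 at rank 52.8. A region at -22.2 kb was called in young 2 at rank 13.4 and in middle-aged 2 at rank 32.2. No region of this gene was called in young 1 or young 3. The 2 intergenic regions that follow were called in middle-aged libraries alone, and their 200 central bases are printed on the strand of Tnfsf11 with matches to the searched motifs in capitals, the first from chr14:78330579-78330778 and the second from chr14:78383497-78383696 (mm10, minus strand).
Tnfsf11 -22.6 kb: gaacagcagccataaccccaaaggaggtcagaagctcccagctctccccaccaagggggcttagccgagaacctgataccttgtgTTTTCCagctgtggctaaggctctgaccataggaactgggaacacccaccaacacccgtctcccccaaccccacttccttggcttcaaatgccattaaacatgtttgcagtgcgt
Tnfsf11 -75.6 kb: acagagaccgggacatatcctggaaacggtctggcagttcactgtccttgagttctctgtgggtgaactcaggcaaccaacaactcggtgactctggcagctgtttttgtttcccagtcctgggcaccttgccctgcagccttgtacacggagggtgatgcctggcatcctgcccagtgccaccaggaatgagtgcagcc
The capitals in the upper sequence are a match to GGAAAA, the core of the NFAT motif, on the opposite strand, and the lower sequence had no match to any of the 7 motifs listed below.

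The region at -22.6 kb, chr14:78330497-78330878, was called in middle-aged 1, 2 and 3 at ranks 4.46, 33.0 and 13.5 with summit pileups of 13, 18 and 16 reads, and in no young library. It was the only one of the 33 regions called in every library of 1 age group and in none of the other, where 2.21% of all regions showed the same pattern in favour of middle-aged libraries. It starts 71 bp beyond the end of the region at -22.2 kb, in which young 2 had a peak, so young 2 was not without signal in this stretch. With any single middle-aged library left out, the number of such regions was 2, while the share over all regions rose to between 3.91% and 4.45%. When only peaks with a −log10 q of at least 5 were kept, the call at -22.6 kb was lost in middle-aged 1 (3.83). It stayed in middle-aged 2 and 3 (7.98 and 5.63). The calls at -22.6 kb were lost when the lists were made equally long.

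The region at -75.6 kb was called in middle-aged 1 and 3 at ranks 0.0949 and 2.50, among the weakest peaks of their lists. Distal enhancers upstream of Tnfsf11 that respond to vitamin D hormone and parathyroid hormone have been described in stromal and osteoblastic cells, and whether these regions correspond to them was not tested. Peaks in the whole domain numbered 0, 2 and 0 in young 1, 2 and 3, against 2, 2 and 3 in the middle-aged libraries, and the groups overlapped (0.667 ± 1.15 against 2.33 ± 0.577, SD, n = 3, exact permutation p = 0.3).

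Csf1, the second ligand gene, differed from Tnfsf11 in having an open start in every library. Its peak region, chr3:107759860-107760655, covers the upstream cluster of start sites of this minus-strand gene and its 5′ untranslated exon. The ranks were 51.3, 74.2 and 39.7 in young 1, 2 and 3, against 67.6, 54.7 and 64.3 in middle-aged 1, 2 and 3. Young 2 was the highest of all 6 and young 3 the lowest, so the young libraries enclosed the middle-aged ones. The group means were 55.1 ± 17.5 and 62.2 ± 6.67 (SD, n = 3), a difference of 7.13 points (exact permutation p = 0.6). The fold enrichment of the same peak, its pileup over the local background, was 5.04, 8.10 and 5.45 in young and 7.20, 5.72 and 6.37 in middle-aged libraries, a log2 difference of 0.08 (exact permutation p = 0.7). Without young 3 the rank difference was -0.542 points, and in equally long lists it was -9.60 points.

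Tnfrsf11b, the decoy receptor gene, had a weak peak just upstream of its start. The region, chr15:54278522-54278854, had its mean summit at -207 bp from the start of the gene. Its ranks were 38.8 and 14.7 in young 2 and 3, against 24.8, 32.8 and 11.2 in middle-aged 1, 2 and 3, with summit pileups of 22 and 13 and of 17, 18 and 16 reads. Young 1, the deepest library, had no peak there, and the called values of the age groups overlapped. Another region at +16.1 kb, in an intron, was called in young 2 and middle-aged 3. No region of this gene was called in all 6 libraries.

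The receptor gene Tnfrsf11a had 4 accessible regions, and each was called in all 6 libraries. Its start lies in a CpG-rich sequence, shown with CpG dinucleotides in capitals because it is the only receptor start called in all 6 libraries (chr1:105780473-105780772, plus strand, RefSeq, GRCm38.p6).
Tnfrsf11a promoter: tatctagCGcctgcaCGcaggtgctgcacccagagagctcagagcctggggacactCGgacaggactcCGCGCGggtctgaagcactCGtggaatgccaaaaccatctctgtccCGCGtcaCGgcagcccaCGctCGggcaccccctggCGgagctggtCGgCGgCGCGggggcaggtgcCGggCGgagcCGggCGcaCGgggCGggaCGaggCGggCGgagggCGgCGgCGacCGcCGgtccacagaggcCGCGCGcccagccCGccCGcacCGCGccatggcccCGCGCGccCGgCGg
This window holds 43 CpG and 76.7% G and C, against the medians of 7 and 52.7% over all promoters. The start-site peak had ranks of 68.6, 70.6 and 61.6 in young 1, 2 and 3, against 70.4, 65.9 and 82.2 in middle-aged 1, 2 and 3. Middle-aged 3 stood above all others, and the rest of the groups overlapped. The means were 66.9 ± 4.76 and 72.8 ± 8.41 (SD, n = 3), a difference of 5.90 points (exact permutation p = 0.5). Fold enrichments were 6.94, 8.16 and 7.60 in young and 7.89, 7.56 and 10.5 in middle-aged libraries, a log2 difference of 0.18 (exact permutation p = 0.5) beside a median of 0.24 over all genes called throughout.

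The other 3 regions of Tnfrsf11a were intronic, at +6.5, +9.6 and +20.7 kb. At +9.6 kb the ranks were 47.1, 49.0 and 35.2 in young 1, 2 and 3, against 54.0, 61.6 and 61.3 in middle-aged 1, 2 and 3. Every middle-aged library was above every young one there, by 15.2 points on average (43.8 ± 7.49 against 59.0 ± 4.31, SD, n = 3, exact permutation p = 0.1). In equally long lists the difference was 1.68 points and the groups overlapped (exact permutation p = 0.7). The 200 bases at its centre, chr1:105790242-105790441 (mm10, plus strand), are shown because they carry several motif matches close together, in capitals.
Tnfrsf11a +9.6 kb: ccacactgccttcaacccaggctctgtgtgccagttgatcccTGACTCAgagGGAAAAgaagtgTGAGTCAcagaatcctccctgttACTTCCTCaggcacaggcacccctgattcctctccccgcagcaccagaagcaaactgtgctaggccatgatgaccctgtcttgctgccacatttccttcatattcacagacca
The capitals mark, in order, TGANTCA (AP-1), GGAAAA (NFAT), TGANTCA again, and GAGGAAGT (PU.1) on the opposite strand. AP-1 matches occurred in 16.0% of all regions, NFAT matches in 15.0% and PU.1 matches in 7.14%. At +20.7 kb the ranks were 59.4, 36.4 and 29.8 in young and 62.6, 54.8 and 72.7 in middle-aged libraries. Young 1 there lay within the range of the middle-aged libraries (41.9 ± 15.5 against 63.4 ± 9.01, SD, n = 3, difference 21.5, exact permutation p = 0.2). The region at +6.5 kb differed by 6.41 points (exact permutation p = 0.3).

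Oscar, the co-stimulatory receptor gene, had no start-site peak, and both accessible regions in its domain lay at starts of other genes. The nearest, chr7:3617181-3617697, lay 1024 bp from the Oscar start, 24 bp outside the window, and overlaps the start of Ndufa3, which encodes a subunit of mitochondrial complex I. Its ranks were 66.0, 80.6 and 68.6 in young and 81.7, 81.2 and 81.4 in middle-aged libraries. The middle-aged libraries were all above the young ones, with a difference of 9.68 points (exact permutation p = 0.1). The groups overlapped when peaks were ranked by fold (7.72 points, exact permutation p = 0.4) and in equally long lists (3.78 points, exact permutation p = 0.8). The other region, at -13.7 kb, lies at the starts of Prpf31 and Tfpt and differed by 15.4 points with overlapping groups (exact permutation p = 0.2). These values therefore cannot be assigned to Oscar rather than to those genes.

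Nfatc1, the central transcription factor gene of the pathway, had the highest-ranked start-site peak of the 10 genes, at a mean rank of 80.3. The median over all genes called throughout was 84.9, above Nfatc1, Tnfrsf11a (69.9) and Csf1 (58.6). Nfatc1 also had the largest number of regions, 9, of which 5 were called in all 6 libraries. The peak lay at the most downstream of its 4 annotated start sites, with the mean summit at -29 bp, and no peak lay within 1000 bp of the upstream ones. Ranks were 79.2, 80.5 and 70.4 in young 1, 2 and 3, against 86.2, 79.9 and 85.4 in middle-aged 1, 2 and 3. Young 2 was above middle-aged 2, so the ranks overlapped (76.7 ± 5.46 against 83.9 ± 3.43, SD, n = 3, difference 7.16, exact permutation p = 0.2).

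Fold enrichment at the Nfatc1 start separated the groups. It was 7.11, 7.71 and 7.66 in young and 9.67, 8.11 and 9.25 in middle-aged libraries, a log2 difference of 0.26 (exact permutation p = 0.1), and each middle-aged value was above each young one. The median log2 difference over all 10569 genes called throughout was 0.24, and 38.4% of those genes had the same separation in fold. Among Csf1, Tnfrsf11a and Nfatc1, 1 of 3 was separated in fold and 0 of 3 in rank, where 30.6% of those genes had middle-aged libraries above in rank. Without young 2, 2 of the 3 were separated in fold and 2 in rank, where 72.2% and 58.7% of all genes were, and without middle-aged 2, 1 in rank, where 41.6% were. When pileups and backgrounds were scaled down to the lowest background among the libraries, none of the 3 was separated in fold.

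The other regions of Nfatc1 were mostly shared between ages. Regions in introns at +10.4, +21.1 and +57.2 kb from the 5′ end of the gene, and 1 upstream at -2.08 kb, were called in all 6 libraries. Their rank differences were 7.59, 7.60, 3.56 and 14.6 points, with overlapping groups at each (exact permutation p of 0.2, 0.4, 0.9 and 0.4). An intronic region at +8.08 kb was missed in young 3 alone. A region at -16.4 kb was called in middle-aged 2 and 3, at ranks 32.6 and 45.2, and in no young library. The number of peaks in the domain was 7, 7 and 6 in young and 6, 8 and 8 in middle-aged libraries (exact permutation p = 0.6).

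**Figure D2:**
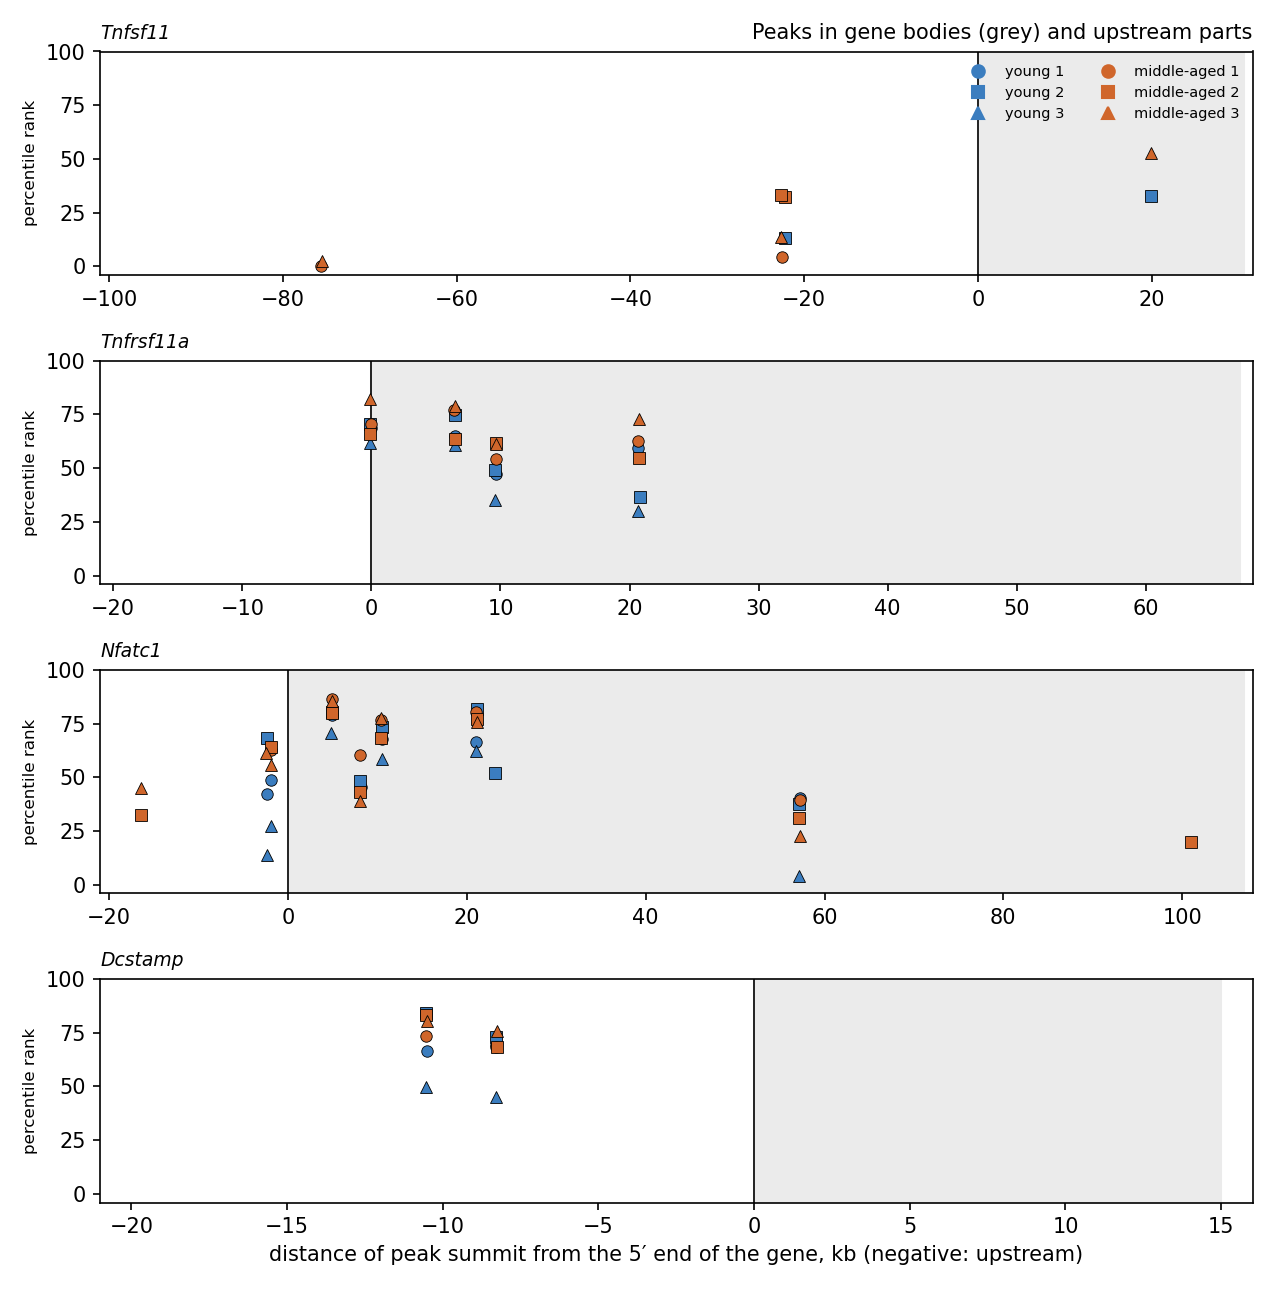
Position of peak summits relative to the 5′ end of 4 genes (horizontal axis, kb, negative upstream, gene body in grey) against percentile rank in each library (vertical axis, %). Tnfsf11 has few and low-ranked peaks, Tnfrsf11a and Nfatc1 have several intronic positions with 6 libraries each, and the 2 positions of Dcstamp lie upstream of the gene.

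The fusion genes had no called start, and their accessible regions lay upstream. Dcstamp, which encodes the transmembrane protein DC-STAMP, had no peak within 8077 bp of a start, and the 2 regions at -10.5 and -8.28 kb were called in all 6 libraries. At -10.5 kb the ranks were 66.7, 84.3 and 49.6 in young and 73.5, 83.0 and 80.6 in middle-aged libraries (difference 12.2, exact permutation p = 0.4). At -8.28 kb they were 69.1, 73.0 and 45.2 in young and 68.4, 68.2 and 75.8 in middle-aged libraries (difference 8.36, exact permutation p = 0.6). Young 3 was lowest at both, and without it the differences were 3.56 points at -10.5 kb and -0.261 points at -8.28 kb. The centre of the latter, chr15:39737551-39737750 (mm10, plus strand), is shown with its AP-1 match, TGANTCA, in capitals, as an accessible sequence nearest to a start that was not called.
Dcstamp -8.28 kb: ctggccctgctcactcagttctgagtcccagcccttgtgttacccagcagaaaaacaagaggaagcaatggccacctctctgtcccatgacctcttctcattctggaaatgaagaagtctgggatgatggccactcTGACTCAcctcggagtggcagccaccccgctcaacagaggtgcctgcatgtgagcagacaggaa
Neither of these 2 regions lay within 1000 bp of the start of another protein-coding gene.

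Ocstamp, which encodes a second fusion protein, had its shared region at -4.85 kb, chr2:165405034-165405728, within an untranslated exon of the neighbouring gene Slc13a3. The ranks were 54.7, 57.7 and 21.3 in young 1, 2 and 3, against 69.8, 61.9 and 61.2 in middle-aged 1, 2 and 3. All middle-aged libraries were above all young ones, with means of 44.6 ± 20.2 and 64.3 ± 4.75 (SD, n = 3), a difference of 19.7 points (exact permutation p = 0.1). Young 3 alone was far below the other young libraries, and without it the difference was 8.07 points. In equally long lists it was 7.26 points and the groups overlapped (exact permutation p = 0.5). A region closer to the gene, at -1.69 kb, was called in young 1, young 2 and middle-aged 3 at ranks 28.0, 11.4 and 38.9.

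The resorption enzyme genes differed from each other. Acp5 had 5 annotated start sites and a single peak in its domain, at -7.82 kb in middle-aged 1, rank 10.9. Ctsk had start-site peaks in middle-aged 1, 2 and 3 at ranks 35.5, 21.6 and 12.7, with fold enrichments of 5.15, 4.89 and 4.34 and summit pileups of 20, 16 and 16 reads. The 3 peaks did not mark a single place. Those of middle-aged 1 and 2 shared the region chr3:95499018-95499282, with a mean summit at -65 bp, whereas the peak of middle-aged 3 had its summit at +502 bp in an intron, so the region at the start was called in 2 libraries. In equally long lists no library kept a start-site peak of Ctsk.

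The Ctsk promoter is shown because this is the only start among the 10 called in a single age group, with CpG in capitals (chr3:95498960-95499259, plus strand, RefSeq, GRCm38.p6).
Ctsk promoter: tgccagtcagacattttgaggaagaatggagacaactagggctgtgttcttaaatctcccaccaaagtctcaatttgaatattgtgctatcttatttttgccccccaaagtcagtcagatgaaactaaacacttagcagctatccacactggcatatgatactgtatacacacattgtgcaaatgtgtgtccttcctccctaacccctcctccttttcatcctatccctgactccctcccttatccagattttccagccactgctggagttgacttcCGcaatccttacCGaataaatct
With 2 CpG and 43.7% G and C it is the poorest in CpG of the promoters printed here. Promoter windows were taken for 6 of the 10 genes. None was found for Tnfrsf11b, Dcstamp and Ocstamp, and none was sought for Nfatc1.

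The sequence motifs were searched on both strands in 200 bases at the centre of 24 of the 33 regions, of which 10 were called in all 6 libraries. The 9 regions of Nfatc1 were not searched. AP-1 (TGANTCA) was found in 3 of 24 regions and in 16.0% of all 63840 regions of that length, and PU.1 (GAGGAAGT) in 3 and in 7.14%. NFAT (GGAAAA) was found in 6 and in 15.0%, C/EBP (TTGCNNAA) in 3 and in 11.1%, and RUNX (TGTGGTT) in 1 and in 8.74%. MITF (TCANGTG) was found in 1 and in 9.38%, and EBF (CCCNNGGGA) in 0 and in 4.36%. In the 300-base promoters the shares were 7.81%, 3.20%, 23.4%, 10.8%, 5.27%, 14.3% and 6.56% in the same order. Matches of different motifs may overlap, and a match describes letters, not binding.

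Across all 10 domains, 15 of the 33 regions were called in every library and 7 in a single library, and no region was called in every young and no middle-aged library. Csf1, Tnfrsf11a, Oscar, Nfatc1, Dcstamp and Ocstamp had a region called in all 6 libraries, 6 of 10 genes, where 61.6% of all genes had one with 20 kb upstream. The rank of all 15 shared regions was higher on average in middle-aged libraries, with a median difference of 8.36 points beside 6.74 over all regions. Groups did not overlap at 3 of the 15, Tnfrsf11a +9.6 kb, Oscar -1.2 kb and Ocstamp -4.8 kb, all with middle-aged above, against 24.3% of all regions called in every library. Without young 2 the count was 10 of 15, where 50.5% of all regions called in the other libraries were separated in this direction, and without middle-aged 2 it was 7 of 15, where 33.8% were. In equally long lists it was 0, where 6.97% of all regions were, and the mean rank was then lower in middle-aged libraries at 7 of the 14 regions that still had a value.

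**Figure D3:**
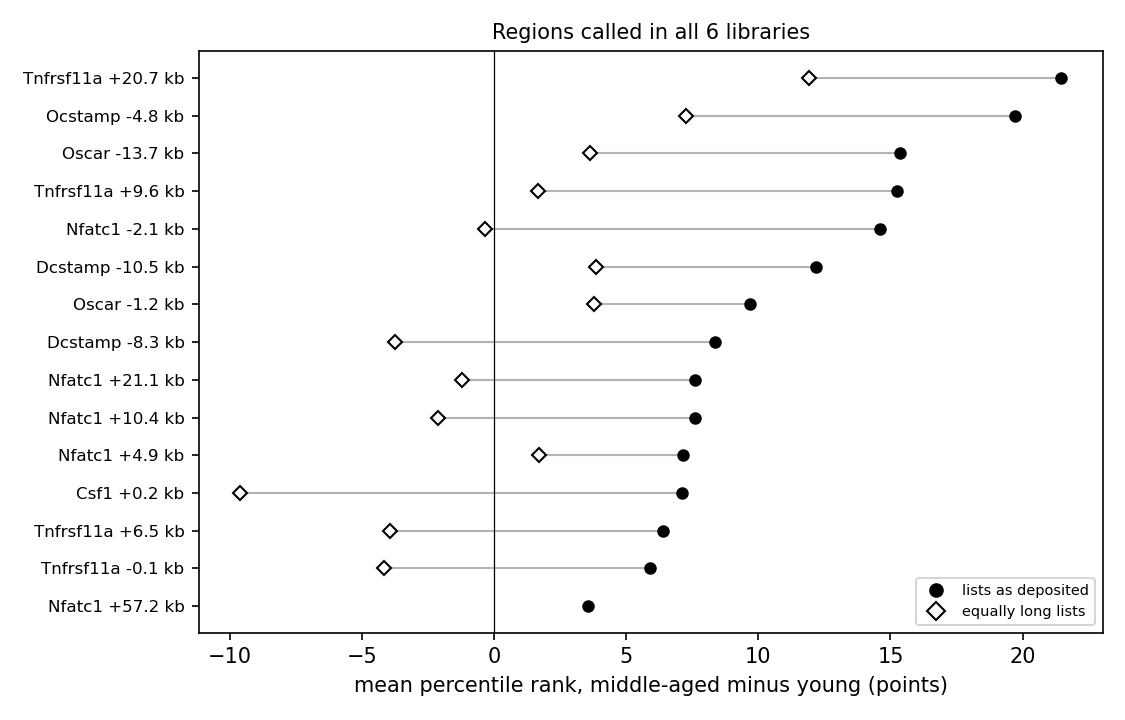
Difference of mean percentile rank, middle-aged minus young (horizontal axis, points), for the 15 regions called in all 6 libraries, named by gene and distance in kb from its 5′ end. Filled circles use the lists as deposited, and all lie to the right of 0. Open diamonds use equally long lists of 27628 peaks, where 7 of 14 lie to the left of 0.

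The 10 domains together held 20, 23 and 18 peaks in young 1, 2 and 3. In middle-aged 1, 2 and 3 they held 22, 23 and 26. Young 2 matched middle-aged 2, and the means were 20.3 ± 2.52 and 23.7 ± 2.08 (SD, n = 3). Relative to the length of each list the difference was -0.756 peaks per 10000. The difference of 3.33 peaks was 2.17 without young 3 and also without middle-aged 3. With 20 kb upstream for every gene it was 1.67, and that of Tnfsf11 fell from 1.67 to 0. As counts, no single gene had an exact permutation p under 0.3 with all 6 libraries, and without young 2 those of Tnfsf11 and Csf1 were 0.1. Per 10000 peaks of the list, Tnfrsf11a, Oscar and Dcstamp had differences of -0.308, -0.275 and -0.154 (exact permutation p = 0.1 each), although Tnfrsf11a and Dcstamp had the same number of peaks in every library.

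The surrounding pathway was described with 3 lists chosen by function. Of 26 osteoclast signalling genes and regulators, 23 had a TSS peak in all 6 libraries and 0 had none, beside 48.4% and 38.5% of all protein-coding genes. The highest mean ranks were those of Ppp3ca and Ppp3r1, subunits of calcineurin, which dephosphorylates NFAT proteins, at 98.7 each, and of Relb, a subunit of NF-κB, at 98.5. The lowest were Lcp2, an adaptor, at 23.8, Prdm1, the repressor Blimp1, at 49.0, and Fcer1g, the FcRγ signalling chain, at 53.2. Groups were separated with middle-aged above for 8 of the 23 and with middle-aged below for 0, beside the 30.6% over all genes. Bcl6, a repressor of osteoclast genes, had a TSS peak in young 1 and in all 3 middle-aged libraries. Csf1r, also among the macrophage markers, went the other way, with a TSS peak in young 2 and 3 and in no middle-aged library.

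Of 18 further fusion, attachment and resorption genes, 11 had a TSS peak in every library and 3 in none, beside the same 48.4% and 38.5%. Itgav, an integrin chain, had a mean rank of 95.0, Slc4a2, an anion exchanger, of 92.6, and Atp6v1a, a proton pump subunit, of 85.3, whereas Acp2, Snx10 and Car2 were lowest at 46.8, 51.6 and 59.9. Mmp9, Calcr and Siglec15, which encode a matrix protease, the calcitonin receptor and a fusion-related lectin, had no TSS peak in any library. Rac2, a blood-cell GTPase, had a peak in young 1 at rank 8.92 and in the middle-aged libraries at 24.4, 43.5 and 46.0. Groups were separated with middle-aged above for 1 of the 11, beside 30.6% over all genes called throughout.

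Of 23 genes whose products act on Tnfsf11 or Csf1 in stromal cells, or belong with them, 17 had a TSS peak in every library and 1 in none, beside 48.4% and 38.5% of all genes. The highest mean ranks were those of Il6st, the gp130 receptor chain, and Creb1, at 95.6 each, and of Stat3 at 94.8, and the lowest those of Il1r1, Tnfrsf1a and Vdr, the vitamin D receptor, at 40.7, 43.0 and 49.0. Il34, a second ligand of the M-CSF receptor, had none in any library. Pth1r, the parathyroid hormone receptor, was called in young 2 at rank 12.4 and in the middle-aged libraries at 19.0, 16.0 and 29.4. Sema3a, an inhibitor of osteoclast formation, was called in middle-aged 2 and 3 at ranks 3.14 and 0.798. Groups were separated with middle-aged above for 5 of the 17, close to the 30.6% over all genes called throughout.

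**Figure D4:**
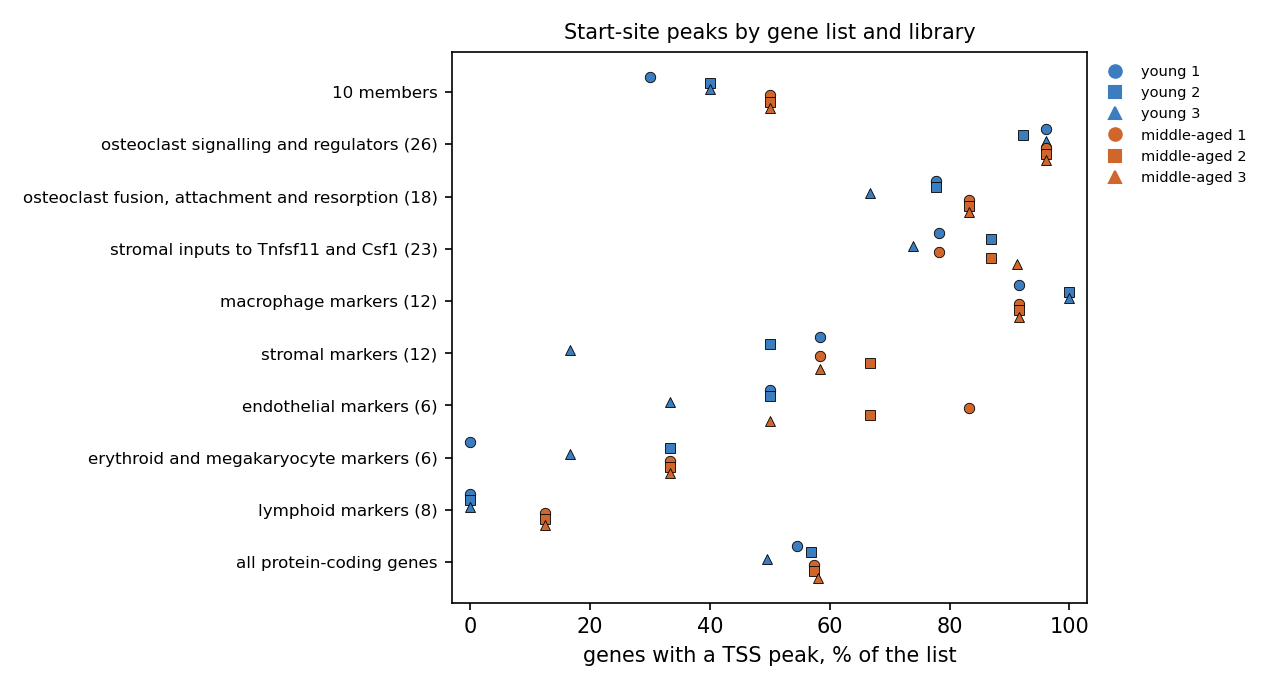
Share of the genes of each list with a TSS peak (horizontal axis, %) in each library, with the number of genes in parentheses. The macrophage and osteoclast signalling lists lie above 90% in all libraries, the 10 members between 30% and 50%, and the stromal list is lowest in young 3, where 2 of 12 genes were called.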

How the data were processed

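ATAC-seq was performed by the authors on young and middle-aged SSPC cultures, with 3 libraries for each age. Base calls were converted with bcl2fastq, reads were aligned to mm10 with Bowtie2, duplicates were removed with Sambamba and peaks were called with MACS for each library. A correction of cut sites for the transposase is not given in the sources used here, and a few bases would hardly alter windows of 1000 bp. The authors deposited for each peak a score, a fold enrichment (linear ratio to the local background), a −log10 p-value and a −log10 q-value. The score was not used. Their DiffBind comparison needs reads and was not repeated.

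Read numbers are not given. The fold enrichment and −log10 p of each peak were solved for the summit pileup and local background under a Poisson model, which gave a whole pileup for 100% of peaks, and the lowest background of a list served as relative depth. Start sites were those of GENCODE vM21. Peaks overlapping by at least 1 bp were merged into regions. Groups came from the sample titles. Group means were compared by the two-sided exact permutation test over 20 assignments, for which p cannot fall below 0.1. Same-numbered libraries did not pair (correlations of deviations 0.00276, -0.00309 and -0.0414 over 22403 regions). Python 3.11.15, numpy 2.4.6, pandas 2.3.3, scipy 1.17.1 and matplotlib 3.10.9 were used, and overlaps, solving and the test were tested on simulated data.

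Named were all 10 genes, every region of a domain called in all 6 libraries, specific to an age group or differing by at least 2 libraries, Tnfsf11 regions of at least 3 libraries, and of the lists the genes called nowhere, those differing by at least 2 libraries and the 3 highest and 3 lowest mean ranks among genes called throughout (where a list had at least 6 such genes). A marker that the rule would name is not reported here. Other regions of Tnfsf11, Tnfrsf11b, Ocstamp, Nfatc1, Ctsk and Acp5 were named after their values were seen. So were the markers Cxcl12, Pdgfrb, Col1a1 and Col1a2. The members and lists were chosen with earlier results of these data known. Alternatives covered a stricter q, equally long lists, thinning, windows, overlap rules, ranking by fold, upstream length and each library left out. Marker counts without young 3 and shares of all features under each setting were added after seeing the data.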

Additional observations from a re-analysis of the deposited data

How the results depend on the processing

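Of 467 recomputed values, 420 kept their direction or, for counts, stayed within 1.5 times, 25 turned and 22 moved or fell to 0. The 420 include the values of a replicate block, which cannot change a difference of means. They also include the fold values in equally long lists, which came from the same peaks. Equally long lists changed most: the mean difference, middle-aged minus young, became -0.667 in members with a TSS peak (1.33 as deposited) and -2.67 in domain peaks (3.33), no shared region separated the groups, and the region specific to middle-aged libraries gave way to 1 specific to young ones. Ranks there turned at Csf1 (-9.60), at Tnfrsf11a's start (-4.17) and +6.5 kb (-3.92), Dcstamp -8.28 kb (-3.76) and Nfatc1 +21.1 kb (-1.21), +10.4 kb (-2.12) and -2.08 kb (-0.352), and domain peaks at Tnfrsf11b (-0.667) and Nfatc1 (-1.33). Per 10000 peaks the domain total was -0.756, with Tnfrsf11a -0.308, Nfatc1 -0.350 and Dcstamp -0.154. A −log10 q of at least 5 left 0 specific regions, thinning left 0 members separated in fold, and ranking by fold gave 1 member separated in rank. The Nfatc1 +57.2 kb region was the 1 specific to young libraries in equally long lists. It kept its young calls and lost its middle-aged calls, so it had no rank difference there. By construction equally long lists drop the weakest peaks of the longer lists; the cause of other changes was not tested.

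Leaving out each library gave 0 to 2 members separated in rank, 1 to 2 in fold, 3 to 10 shared regions separated and 1 to 2 middle-aged-specific regions. Signs turned without young 1 for the Csf1 log2 fold (range over the libraries left out -0.0537 to 0.29) and for Tnfrsf11b domain peaks (-0.167 to 0.833), without young 3 for the ranks of Csf1 (-0.542 to 16.7), Dcstamp -8.28 kb (-0.261 to 13.7) and Nfatc1 +57.2 kb (-8.02 to 10.1), and without middle-aged 1 for the Csf1 log2 fold (-0.00567) and Nfatc1 +57.2 kb (-0.604). A replicate block cannot change a difference of group means, which is 7.13 points for Csf1 for example, and its smallest exact permutation p was 0.25. Depth limits calls most in young 3, at 8 reads or 4.86 times the background.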

Other observations

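The regions of Csf1r, which encodes the receptor of M-CSF, were chosen after its values were seen. Csf1r was the single macrophage marker without a TSS peak in every library: peaks were called in young 2 and young 3, at ranks 17.3 and 6.19, and in no middle-aged library. Its gene body and 20 kb upstream nevertheless held 9 regions, of which 4 were called in all 6 libraries. The region in the gene body 8031 bp from the 5′ end had ranks of 90.4, 90.1 and 83.1 in young and 92.7, 92.4 and 93.2 in middle-aged libraries. Its mean of 90.3 was higher than the mean of any region of the 10 members, of which the Nfatc1 start had the highest at 80.3.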
